A study of Brassica juncea with 9 samples.

Results

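A group of 87 microarray probes was read differently in leaves of *Brassica juncea* (Indian mustard) under sodium chloride alone than under both other conditions of the experiment. The label for the group is salt-shifted transcripts back at control with bicarbonate, but no plant was moved from one solution to another: the alkaline salt plants were a separate group whose values lay near those of the controls. The members were 39 probes higher in salt and 48 probes lower in salt, out of 43603 probes (40632 transcript identifiers) on the array and 16526 that passed the detection part of the rule. They were chosen from the deposited log2 values and the scanner's detection flags. The salt mean had to differ by at least 0.8 from the control mean and from the alkaline salt mean in the same direction, all 3 salt plants had to lie beyond all 6 others, and the control and alkaline salt means had to differ by less than 0.5. A probe also had to be well above background on all 3 salt arrays or on all 6 other arrays. The choice used every plant and all 3 group means, so the shifts below are a description and carry no test.

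All plants were of genotype NDR8501, raised hydroponically in modified Hoagland solution and 5 weeks old at sampling. Control plants received no NaCl and no added bicarbonate, salt plants received 50 mM NaCl for 4 weeks, and alkaline salt plants received 50 mM NaCl for 4 weeks in solution buffered with 2.5 mM bicarbonate. Each group had 3 biological replicates, each a middle, fully expanded leaf of a single plant hybridised to 1 one-colour array. The files name no gene for any probe, so the leaf label could not be checked against marker genes, and members are given by array identifier, by rank or by count.

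As background, sodium chloride lowers the water potential around the root and loads leaves with sodium and chloride, and plants respond with ion export and storage in the vacuole, osmolyte synthesis and abscisic acid signalling. Bicarbonate raises and buffers the pH of the root medium, which lowers the solubility of iron and other micronutrients and weakens the proton gradient that drives ion transport at the root. The salt and alkaline salt plants had the same NaCl concentration, so the solutions of these groups differed in the bicarbonate and what follows from it. Which of these pathways the members belong to is not stated in the files used here.

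Arrays differed before scaling, and some of these differences touch members with low values. Between 38.5% and 50.6% of probes were well above background on an array. The salt group held both extremes of the 75th percentile of processed intensity, 417 in salt replicate 2 and 1751 in salt replicate 3, and both extremes of the net signal of negative control spots, 225 and 1901 on the same arrays. On the deposited log2 scale, the lowest value that counted as well above background was 6.12 in salt replicate 2, 6.30 in alkaline salt replicate 3 and 6.94 in control replicate 2, and it lay between 7.80 and 8.20 on the other 6 arrays. Values below about these levels have no order between arrays. Arrays with the same replicate number lay on the same slide, so each slide held 1 plant of each treatment.

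The members lay on the diagonal between both salt contrasts, as the rule requires. In the probes higher in salt, the median difference was 1.36 from control and 1.56 from alkaline salt on the log2 scale, or 2.56-fold and 2.94-fold, with ranges of 0.84 to 4.24 and 0.85 to 4.30. In the probes lower in salt, the median difference was −1.30 from control and −1.48 from alkaline salt, or 2.46-fold and 2.79-fold lower, with ranges of −4.80 to −0.80 and −4.32 to −0.82. Over all 16526 probes that passed detection the median absolute difference was 0.19 between salt and control and 0.39 between salt and alkaline salt, and the signed medians were −0.01 and 0.03. At least 2-fold differences from control were found in 31 of the 39 and 38 of the 48 members, and at least 4-fold differences in 11 and 9. In whole-leaf RNA, a lower value can come from fewer cells of a type or from less RNA per cell, and these cannot be told apart.

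**Figure D1:**
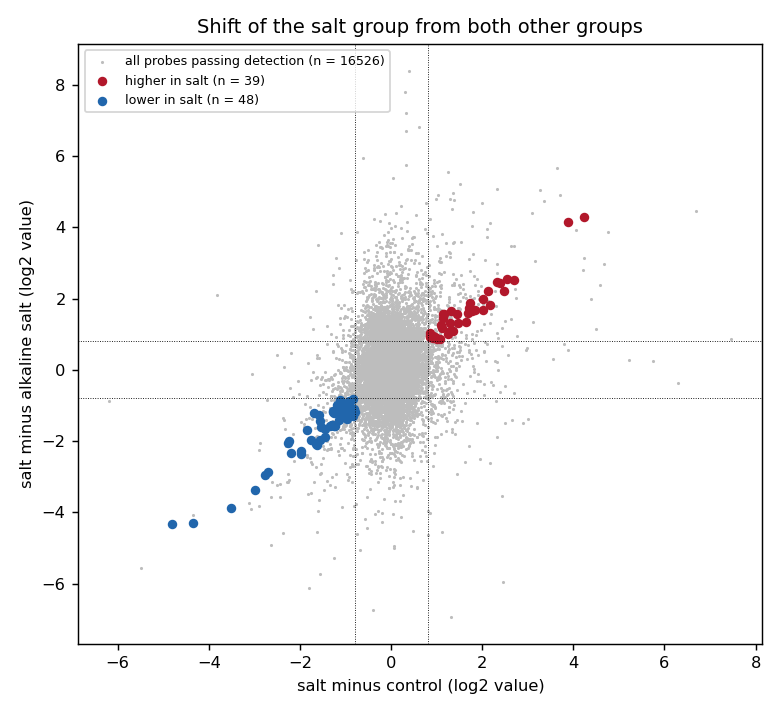
Difference of the salt mean from the control mean (horizontal axis, log2 value) against its difference from the alkaline salt mean (vertical axis, log2 value), with 1 point for each of 16526 probes and dotted lines at 0.8 on either side of 0. The 39 probes higher in salt (red) and 48 lower in salt (blue) lie near the diagonal because the rule limits the difference of control and alkaline salt to less than 0.5.

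The members are a small share of the array. All 3 salt plants lay above all 6 others in 2.09% of the 16526 probes and below them in 1.73%. The full rule was met in the higher direction by 0.236% and in the lower direction by 0.290%, or 0.526% together. The same rule with control as the group apart was met by 82 of 16532 probes that passed detection for it (0.496%), 54 higher and 28 lower in control. With alkaline salt as the group apart it was met by 2207 of 16954 (13.0%), 1058 higher and 1149 lower. These counts share arrays and no test of their difference was made.

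The thresholds divided a continuous range. Among probes that met every other part of the rule, the smaller of the 2 salt differences was 0.84 for the last probe inside and 0.75 for the first outside in the higher direction, and 0.80 and 0.78 in the lower direction, and 216 and 139 probes failed this part alone. The difference of control and alkaline salt means was 0.41 for the last inside and 0.52 for the first outside in the higher direction, and 0.50 and 0.52 in the lower. The gap between the salt plants and the nearest other plant was as small as 0.02 inside the rule in the higher direction and 0.09 in the lower. Overlap alone kept out 99 and 82 probes, and detection alone 29 and 23.

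**Figure D2:**
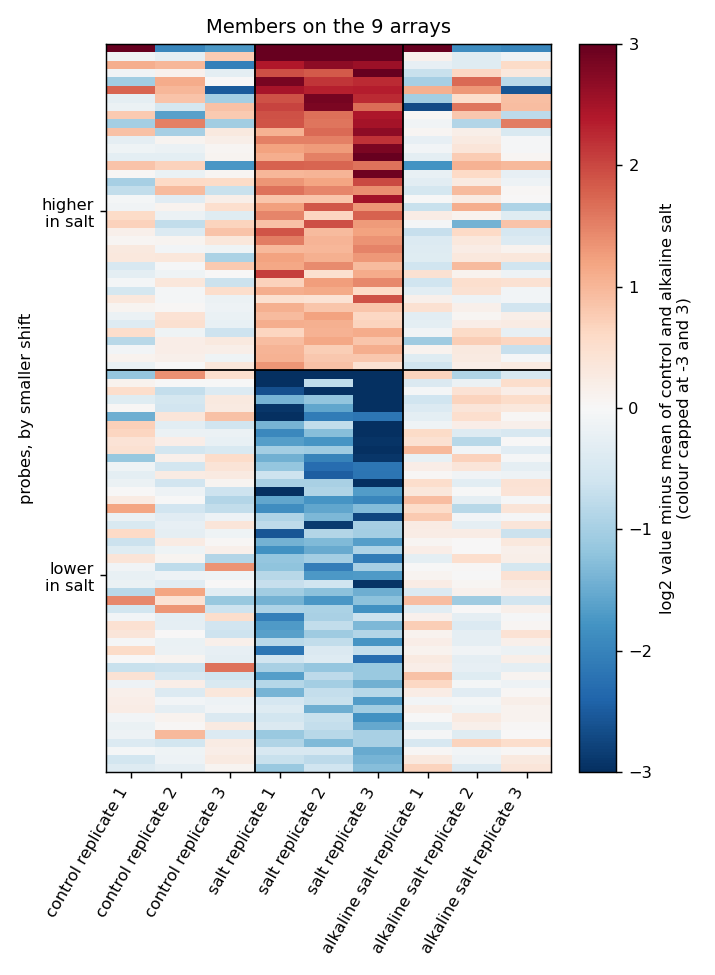
Log2 value of each member on each of the 9 arrays minus its mean over the 6 control and alkaline salt arrays, with colour capped at 3 on either side of 0, 1 row per probe and 1 column per array. The 39 probes higher in salt are above the line and the 48 lower in salt below it, each sorted by the smaller of their 2 shifts. Among the probes higher in salt, the upper rows, with the largest shifts, include dark cells in single control or alkaline salt plants. Among the probes lower in salt, the darkest cells of the upper rows lie in the salt plants.

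Detection divided the members nearly evenly. All 9 arrays detected 22 of the 39 probes higher in salt and 25 of the 48 lower in salt. The other 17 and 23 were dim on at least 1 array. Over the whole array, 14476 probes were detected on all 9 arrays, against 16526 that passed the detection part of the rule. Members were thus dim on some array more often than the probes that passed, and no test of this was made. The 17 passed through the salt arrays alone, where the rule asks for higher values. The 23 passed through the control and alkaline salt arrays alone. In the probes higher in salt and detected on all 9 arrays, the median difference was 1.15 from control and 1.28 from alkaline salt, and the largest was 2.03 from control. In those dim on some array, the medians were 2.12 and 1.82. In the probes lower in salt, the medians were −1.24 and −1.27 where all 9 arrays detected the probe, and −1.65 and −2.06 elsewhere. The 11 members with the largest shifts among the probes lower in salt were all dim on at least 1 salt array, so the sizes of the largest differences rest in part on signals at background.

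A_46_P116804 was the member with the widest gap and the only one well above background in salt plants alone. Its log2 value was 9.79, 9.80 and 9.67 in salt replicates 1 to 3, against 5.64, 5.49 and 6.50 in controls and 5.86, 5.37 and 5.60 in alkaline salt plants. The salt plants lay within 0.13 of each other and 3.17 above the highest other plant. The group means were 5.88 ± 0.54 (SD, n = 3) for control, 9.75 ± 0.07 for salt and 5.61 ± 0.25 for alkaline salt. Because no control or alkaline salt array detected it, only a bound on the deposited scale can be given. On that scale it was at least 4.37-fold higher than in control and at least 4.88-fold higher than in alkaline salt plants. Here and below, a bound compares the mean where the probe was bright with the mean where it was dim, after each dim value was raised to the lowest value well above background on its array. Such a bound holds for the deposited values only and not under another background correction. With normexp background correction its differences were 1.31 and 1.37 on the log2 scale, in place of 3.87 and 4.14. These are smaller than the bounds, which are 2.13 and 2.29 on the log2 scale.

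A_46_P036781 had the largest shift among the probes higher in salt, but not a uniform one. Its values were 11.57, 12.43 and 11.44 in salt, 11.33, 5.58 and 5.82 in control, and 11.26, 5.68 and 5.59 in alkaline salt plants. Control replicate 1 lay 0.11 below the lowest salt plant and alkaline salt replicate 1 lay 0.18 below it, while the other 4 plants were not well above background. The group means of 7.58 ± 3.25 (SD, n = 3) and 7.51 ± 3.24 are therefore midpoints between bright and dim plants. The salt mean, 11.81 ± 0.54, differed from them by 4.24 and 4.30 on the log2 scale. With normexp the differences were 2.48 and 2.54. Without control replicate 1 no remaining control array detected the probe, and salt was at least 19.8-fold higher than control. Without alkaline salt replicate 1 it was at least 24.9-fold higher than alkaline salt. All 3 plants with replicate number 1, which share a slide, were bright.

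A second probe of the same transcript identifier showed the same division of plants. It read 9.35, 10.54 and 9.67 in salt, 9.47, 5.31 and 5.28 in control, and 9.68, 5.41 and 5.29 in alkaline salt plants. There salt replicate 1 lay below control replicate 1 and alkaline salt replicate 1, so the groups overlapped and this probe is not a member.

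A_46_P115954 was the member with the largest shift among the probes lower in salt. Its values were 5.35, 5.96 and 5.38 in salt, against 8.97, 11.50 and 10.62 in control and 10.78, 9.22 and 9.64 in alkaline salt plants. No salt array was well above background and all 6 others were, with a gap of 3.02 between them. The bound was at least 7.96-fold lower than in control and at least 5.68-fold lower than in alkaline salt. The means were 10.37 ± 1.28 (SD, n = 3) for control, 5.56 ± 0.34 for salt and 9.88 ± 0.81 for alkaline salt. Control and alkaline salt differed by 0.49, near the limit of the rule. With normexp the differences from salt were −2.13 and −1.76, in place of −4.80 and −4.32. These too are smaller in size than the bounds, which are −2.99 and −2.51 on the log2 scale.

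A_46_P010606 was lower in 2 of the 3 salt plants by a wide margin. Its values were 5.47, 11.08 and 5.99 in salt, 11.94, 11.84 and 11.82 in control, and 11.41, 11.67 and 12.36 in alkaline salt plants. Salt replicate 2 was well above background and only 0.33 below the lowest other plant. The salt SD was 3.10, against 0.06 in control and 0.49 in alkaline salt. The difference from control was −4.35, or −2.02 with normexp. Without salt replicate 2 no remaining salt array detected the probe, and it was at least 14.5-fold lower than control. Without salt replicate 1 the difference was −3.33.

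**Figure D3:**
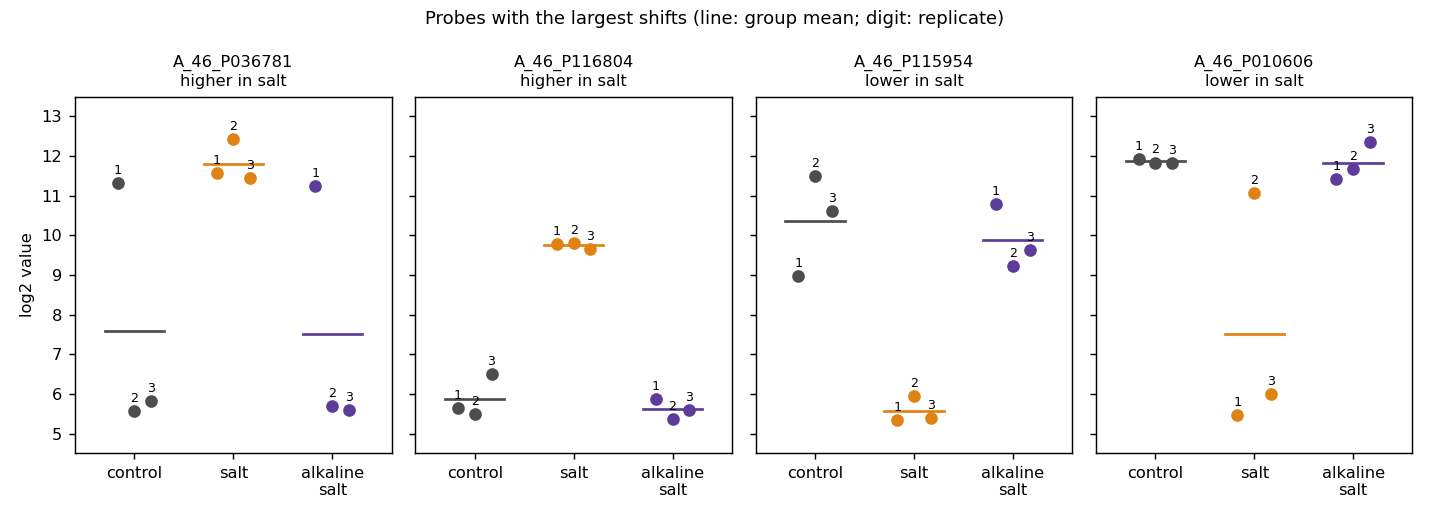
Log2 value of the 2 probes with the largest shifts in each direction, by group, with 1 point per plant labelled by its replicate number and a line at the group mean (n = 3 plants per group). A_46_P116804 and A_46_P115954 show salt plants well apart from the other 6. In A_46_P036781, replicate 1 of control and of alkaline salt lies just below the salt plants, and in A_46_P010606 salt replicate 2 lies near the other groups.

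One further member was well above background in no salt plant, the probe ranked 3 among those lower in salt. It read 7.87, 5.53 and 7.02 in salt, 11.03, 9.80 and 10.10 in control, and 10.44, 10.95 and 10.70 in alkaline salt plants. The bounds were at least 7.66-fold lower than control and at least 9.98-fold lower than alkaline salt.

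Members detected on every array give differences between values that were all well above background by the scanner's flags. How far these differences depend on the background correction was not tested separately for such members. The 4 described next were picked after their values were seen, for the widest gap or the largest shift among such members, the shift being the smaller of the differences from control and from alkaline salt. The probe ranked 12 among those higher in salt had the widest gap, 1.23. It read 11.76, 11.77 and 12.42 in salt, 9.99, 10.35 and 10.44 in control, and 10.52 and 10.23 in alkaline salt replicates 2 and 3, the lowest alkaline salt plant being replicate 1. The control mean of 10.26 ± 0.24 (SD, n = 3) and the alkaline salt mean of 10.25 ± 0.26 differed by 0.01, and salt was 3.29-fold and 3.32-fold higher. The probe ranked 9 had the largest shift by that measure, 4.06-fold from control and 3.95-fold from alkaline salt, with wider spread. It read 12.37, 12.12 and 12.88 in salt, 11.24, 8.83 and 11.24 in control, and 10.48, 11.27 and 9.67 in alkaline salt.

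In the lower direction, the probe ranked 12 had the largest shift by the same measure among members detected everywhere. It read 13.14, 12.00 and 12.12 in salt, 14.15, 13.73 and 14.68 in control, and 14.49, 14.66 and 14.02 in alkaline salt plants, so it was 3.40-fold lower than control and 3.93-fold lower than alkaline salt. The probe ranked 16 had the widest gap, 0.68. It read 11.20, 10.98 and 10.80 in salt, a spread of 0.40, against 13.01, 12.76 and 11.88 in control and 13.68, 12.49 and 12.72 in alkaline salt plants. For both probes the alkaline salt mean was above the control mean, by 0.21 and 0.41.

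The 3 salt plants did not contribute alike. In the probes higher in salt, the median deviation from the mean of control and alkaline salt was 1.23, 1.24 and 1.62 in salt replicates 1 to 3, and salt replicate 3 was the highest plant for 17 of 39 probes. In the probes lower in salt the medians were −1.19, −1.07 and −1.68, and salt replicate 3 was the lowest plant for 24 of 48. Of these 48, 33, 46 and 29 were well above background on salt replicates 1 to 3. The remaining values have no order between arrays, so these medians and ranks rest in part on undetected signals. Salt replicate 3 stood at least 1 log2 unit above both other salt plants in 6 of the 39, and at least 1 unit below both in 13 of the 48. The matching counts were 0 and 5 for salt replicate 1 and 0 and 2 for salt replicate 2. Salt replicate 3 was also the array with the highest negative control signal. Of the 13 probes, 11 were not well above background on that array, and the part of the array's background in these values was not tested.

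**Figure D4:**
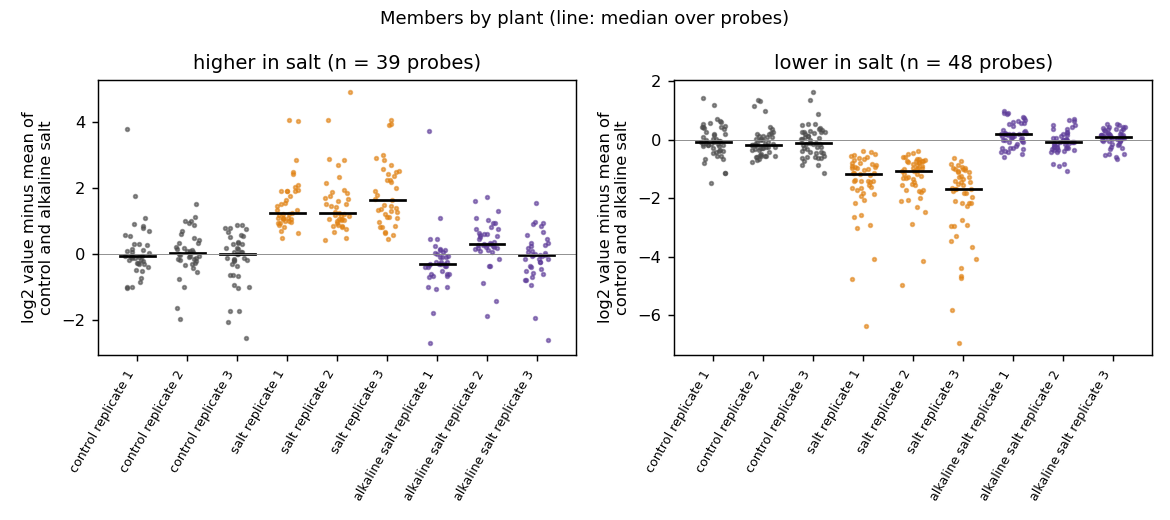
Log2 value of each member minus its mean over the 6 control and alkaline salt plants, by plant, for the 39 probes higher in salt and the 48 lower in salt, with 1 point per probe and a line at the median. Salt replicate 3 has the median farthest from 0 in both panels, at 1.62 and −1.68, and the alkaline salt plants differ from each other in the left panel.

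In the 6 probes with salt replicate 3 at least 1 log2 unit above both other salt plants, salt replicates 1 and 2 differed by at most 0.42. Salt replicate 3 exceeded the higher of these by 1.43 to 2.10. Without salt replicate 3, their salt mean was still 0.43 to 1.99 above control, with a median of 1.18. All but 1 were detected on all 9 arrays. The probe ranked 14, for example, read 12.30, 12.72 and 14.19 in salt, 10.92, 10.91 and 11.29 in control, and 10.91, 11.97 and 11.28 in alkaline salt plants. The probe ranked 16 read 12.30, 12.32 and 14.21 in salt, 11.33, 11.09 and 11.36 in control, and 11.07, 11.91 and 11.04 in alkaline salt. In both, alkaline salt replicate 2 was the highest plant outside the salt group, whereas in the probe ranked 31 that plant was control replicate 1, at 10.74.

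The 13 probes lowest in salt replicate 3 had differences from control of −2.15 to −0.43 without that plant, with a median of −0.86. The probe ranked 4 showed the widest contrast. It read 10.95, 11.18 and 5.40 in salt, 11.99, 11.84 and 12.64 in control, and 11.75, 13.01 and 12.90 in alkaline salt plants. Its group difference thus comes mostly from 1 plant, in which it was not detected. Without salt replicate 3, 35 of the 39 and 38 of the 48 members still met the rule. Membership depended more on alkaline salt replicate 1 in the higher direction, where 24 of the 39 met the rule without it, and on control replicate 1 in the lower direction, where 35 of the 48 did.

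Within slides the direction was the same for every member, because the rule asks that the groups do not overlap, but sizes differed. In the probes higher in salt, the median difference from control was 1.32, 1.18 and 1.98 on slides 1 to 3, and from alkaline salt 1.59, 0.74 and 1.73. In the probes lower in salt it was −1.03, −0.97 and −1.62 from control, and −1.47, −0.94 and −1.91 from alkaline salt. Slide 2 thus gave the smallest median and slide 3 the largest in each of the 4 comparisons. Slide 2 held salt replicate 2, the array with the lowest background, and alkaline salt replicate 2, whose median deviation in the probes higher in salt was 0.31. Whether either bears on the slide 2 medians was not tested.

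The alkaline salt plants were not uniform either. Alkaline salt replicate 2 was the plant nearest to the salt group for 18 of the 39 probes higher in salt, against 2 for alkaline salt replicate 1 and 4 for alkaline salt replicate 3. Its median deviation was 0.31 in these probes, while alkaline salt replicate 1 had −0.30 and alkaline salt replicate 3 −0.04. In the probes lower in salt, the nearest plant was more often a control, with 11, 13 and 15 probes for control replicates 1 to 3 and 3, 4 and 2 for the alkaline salt plants. There the alkaline salt mean was above the control mean in 31 of 48 probes, with a median difference of 0.17. In the probes higher in salt it was above in 18 and below in 21, with a median of −0.02. Over all 16526 probes that passed detection the median difference of alkaline salt from control was −0.03. The rule bounds these differences at 0.5 in either direction.

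Spread within groups was wider among members than over all probes that passed detection. In the probes higher in salt, controls had a median SD of 0.53, salt plants 0.39 and alkaline salt plants 0.50. In those lower in salt, the same medians were 0.43, 0.59 and 0.33, and over all 16526 probes they were 0.31, 0.25 and 0.25. No test of this difference was made, and members dim on some arrays contribute the widest spreads, up to 3.25 in control and 3.27 in salt.

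The 87 members belong to 87 different transcript identifiers, and each was spotted once per array. For 13 of them the array carries other probes of the same identifier, 14 in all, of which 12 were well above background on at least 1 array. These were read from the same RNA on the same arrays and are no independent replicate. Of the 12, 11 differed from both other groups in the same direction as the member, although 0 of the 14 met the full rule and in 4 all salt plants lay beyond all others. One of these 4 was detected on no array and lay on the opposite side from its member. The exception was 1 of the 2 further probes of the member ranked 15 among those lower in salt, which differed by 0.02 and 0.05 where the member differed by −1.62 and −2.12. The other further probe of that member, detected on all 9 arrays, differed by −0.86 and −1.73.

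Sizes agreed only in part between probes of a transcript. The second probe of the member ranked 38 among those higher in salt read 17.31, 17.11 and 16.82 in salt, 16.54, 16.58 and 16.32 in control, and 16.06, 16.65 and 16.30 in alkaline salt plants. It differed by 0.60 and 0.75 where the member differed by 0.85 and 0.93. For the member ranked 36, the second probe differed by 1.86 from control and 0.55 from alkaline salt, against 1.08 and 0.85 in the member. It read 10.41, 10.57 and 8.47 in salt and at most 9.25 in controls, while alkaline salt replicates 1 to 3 read 7.32, 10.34 and 10.12, so alkaline salt replicates 2 and 3 lay among the salt plants. For the member ranked 31 among those lower in salt, the second probe differed by −1.30 and −1.79, against −1.13 and −1.40.

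**Figure D5:**
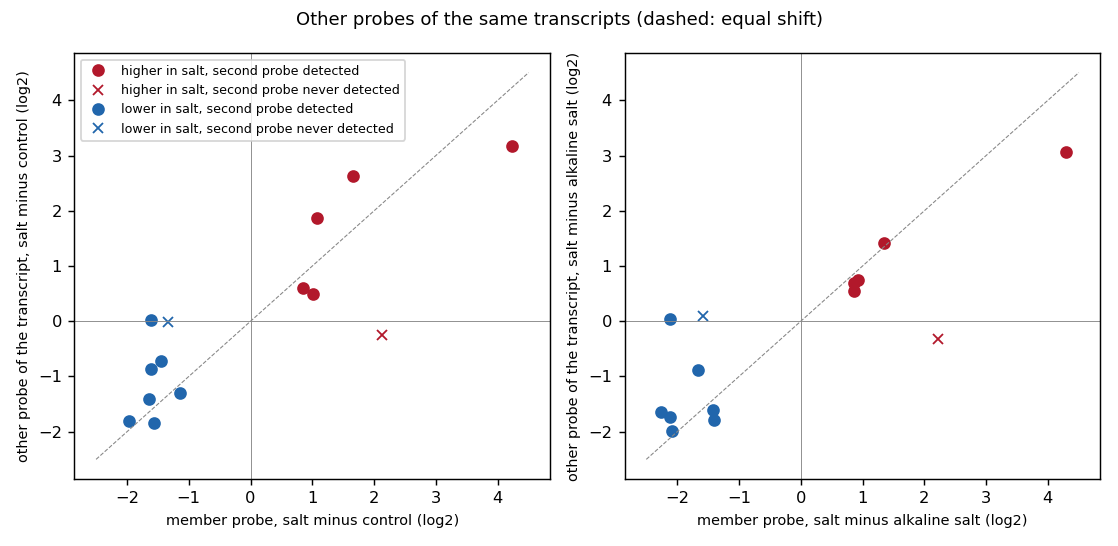
Log2 difference of salt from control (left) and from alkaline salt (right) for a member probe (horizontal axis) and another probe of the same transcript identifier (vertical axis), with 1 point for each of 14 other probes and a dashed line of equal shift. Filled points are the 12 other probes well above background on at least 1 array, 11 of which share the member's direction in both panels, and crosses are the 2 that were detected on none.

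A fit over all 17798 probes detected on all 3 arrays of at least 1 group (limma with Benjamini-Hochberg adjustment, called at an adjusted p under 0.05) gives the background for these members. Salt against control called 0.0337% of all tested probes, 0.0112% higher and 0.0225% lower in salt, and among the members 1 of the 39, A_46_P116804, and 0 of the 48. With the slide as a block, limma called 0 probes in this contrast, 1060 having an unadjusted p under 0.05, so this 1 call was lost (smallest adjusted p = 0.0592). Without the block, an unadjusted p under 0.05 was found in 5.89% of tested probes, 33 of the 39 and 45 of the 48. Alkaline salt against salt called 15.2% of tested probes, 7.24% lower and 7.98% higher in alkaline salt. Among the members it called 14 of the 39, all lower in alkaline salt, and 26 of the 48, all higher. Alkaline salt against control called 17.9% of tested probes, 8.01% higher and 9.86% lower in alkaline salt, and, in limma, 0 of the 87 members, none of which had an unadjusted p under 0.05. The rule used each of these contrasts, so the members' counts are printed beside the background and nothing is read from them.

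Against the mean of control and alkaline salt, 1.72% of tested probes were called, 0.354% higher and 1.37% lower in salt, and the members called were 5 of the 39 and 9 of the 48. That contrast sets no limit on the difference between control and alkaline salt, so it is not restricted to the pattern described here.

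Every member kept its direction against both other groups under each of 5 other normalisations, 39 of 39 and 48 of 48. The members were chosen on these same arrays for shifts of at least 0.8 without overlap, so this outcome was close to fixed in advance. Quantile normalisation alone, 1 of the 5, is also the inferred scale of the values used for the choice. The sizes depended on the background correction, and membership on the scaling as well. With normexp correction and quantile normalisation, the median differences of the probes higher in salt were 0.79 from control and 0.83 from alkaline salt, and those of the probes lower in salt −0.82 and −0.90. Under it, 16 of the 39 and 24 of the 48 members met the full rule. Scaling each array to its median left 8 of the 39 and 35 of the 48 within the rule, a larger loss in the higher direction than with normexp.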

How the data were processed

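For each array the authors deposited linear, background-subtracted spot intensity from Agilent Feature Extraction. Its version is 10.1.1.1 per the file headers, while 10.5.1.1 stands in the submitters' processing notes. The scan times in the headers of all 9 arrays precede the labelled growing period, for a reason not stated in these sources, so the link of arrays to plants rests on the labels alone. The deposited value table holds log2 values. How they were made is not given in the sources used here. Their columns matched quantile-normalised log2 processed intensity within 0.0891, so that scale is inferred. They were not centred per probe. The detection flags are 0 or 1 per spot, as deposited (unit other).

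Members and their values come from the value table, with a probe detected where at least 0.5 of its spots were flagged well above background. Members and lists were chosen with earlier results of these data known. For the fits, control spots were left out, outlier-flagged spots set to missing, log2 processed intensity was scaled to each array's 75th percentile and repeated spots averaged. Group means of all 9 arrays were fitted with limma 3.58.1 in R 4.3.3, two-sided, without covariates, and the fit was tested on simulated data. Figures were drawn with matplotlib 3.10.9. Named probes are the 2 per direction with the largest smaller shift, 1 per transcript identifier. Gene lists and leaf markers were not applied, as no table used here names the probes. The normexp correction used median spot signals. The number of arrays limits precision, and p-values measure the spread between single plants.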

Additional observations from a re-analysis of the deposited data

How the results depend on the processing

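Member counts of 39 higher and 48 lower in salt became 13 higher under median scaling (8 of them among the 39), 20 and 27 with normexp, 68 higher with no filter on dim probes, 22 and 25 when all 9 arrays had to detect the probe, and 138 and 130 where the groups could overlap. They stayed within 1.5 times under the other planned settings. With any 1 array left out, the counts ran from 37 to 124 higher and from 50 to 97 lower. Fewer plants make the rule easier to meet, and the counts were 124 and 97 without salt replicate 1, 74 and 92 without salt replicate 2, 72 higher without salt replicate 3, 68 and 86 without control replicate 2, 70 higher without control replicate 3 and 87 lower without control replicate 1.

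Salt against control called 6 probes in limma, 13 with the value table or with quantile normalisation (the latter added after seeing the data), 2 (1 higher, 1 lower) with the percentile over detected probes, 63 with median scaling, 2 with no filter, 1 with all 9 arrays and 1 to 18 without single arrays (1 without control replicate 1 or salt replicate 1, 3 without alkaline salt replicate 1, 13 without control replicate 3, 18 without salt replicate 2). Alkaline salt against salt (2708 called, 1420 higher and 1288 lower) gave 1285 with median scaling (820 and 465), 1037 with no filter and 1188 to 2981 without single arrays (1574, 1794 and 1398 without salt replicates 1 to 3, 1188 when alkaline salt replicate 3 was left out). Alkaline salt against control (3180) gave 1487, 1475 and 1596 to 3831 (1596 without alkaline salt replicate 3, 1944 and 1981 without control replicates 1 and 2). Salt against the mean of both others (307) gave 506 with normexp, 85 with no filter, 140 with all 9 arrays and 63 to 430 without single arrays (81, 192 and 63 without salt replicates 1 to 3, 166 and 110 without alkaline salt replicates 1 and 3, 163 and 204 without control replicates 1 and 3). Apart from the probes or arrays entering a fit, the cause was not tested.

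Same-numbered arrays share a slide, and the labels do not say more. The correlation of their deviations ran from −0.143 to 0.356 and exceeded 0.1 in 2 of 9 pairs. For 3 of 9 arrays the best match was an array of the same number. With the replicate block, limma called 0 probes in salt against control (smallest adjusted p = 0.0592, 1060 at an unadjusted p under 0.05) and 147 in salt against the mean of both others, and no other count moved by more than 1.5 times. The block cannot change a difference of group means here. Of 72 other alternatives for the differences of named probes, 66 moved by less than 1 SD, 6 by more, all 6 of these with normexp, and 0 changed sign. The SD meant here is not that of a single group. The normexp changes of A_46_P010606 are among the 6, although smaller than its salt SD of 3.10. These probes were picked for large shifts on the same arrays, so little can be read from their kept sign. The SD of A_46_P036781 is wide, and its normexp differences of 2.48 and 2.54, against 4.24 and 4.30, are among the 66.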
